A study of Homo sapiens with 44 samples.

Results

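RNA was compared between a pair of rescue lines of HCT116, a human colon carcinoma cell line with intact p53, in 6 of the 44 samples of the series. Both lines were made from cells in which GAS41 had been knocked out. One stably expressed tagged normal GAS41 (GFP-Flag-GAS41 wt, here wt rescue), and the other stably expressed the same fusion with the substitutions Y74A and W93A (mut rescue). Each line gave 3 libraries, called biological replicates in the labels. All 14505 genes that passed a filter on low reads, of 18797 in the table, were compared between them. The same table holds 3 libraries of unedited cells (WT) and 3 of knockout cells without a rescue (GAS41-KO), which serve as reference. The labels record no treatment of these 12 libraries, and do not say how many clones each line stands for or which promoter drives the rescue protein, so p-values measure the spread between these libraries only.

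GAS41, the product of YEATS4, is a small chromatin protein with an N-terminal YEATS domain, an aromatic pocket that binds acylated lysines on histone H3. The Y and W residues replaced in the mutant lie in that domain. It works within the TIP60 and SRCAP complexes, which acetylate histones and load the histone variant H2A.Z. The series as a whole asks about crotonylation of histone H3 lysine 27 and transcriptional repression, and this comparison asks which RNA levels differ when the rescue protein has an altered YEATS pocket.

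Values are given on a pair of scales. Normalized reads are reads divided by the size factor of the library, recovered from the deposited values. Differences and their tests are on the deposited log2 scale, which is variance-stabilized: it compresses genes with few reads, so that log2 differences of such genes are smaller than their folds. A gene was called at a Benjamini-Hochberg adjusted p under 0.05 (limma, 1 fit over the 12 libraries).

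Depth was between 16857982 and 18546135 reads per library. Genes with reads numbered 17444, 17190 and 17202 in wt rescue and 17806, 17742 and 17880 in mut rescue. The wt rescue libraries had the most reads and the fewest such genes of all 12 libraries, and the cause was not tested. Of 11 colon epithelial markers listed, 10 were in the table and 6 were tested: EPCAM, KRT8, KRT18, KRT19, CDH1 and CDX2. In each line 4 of the 10 had a mean under 10 normalized reads, and VIL1 was at 0 in wt rescue. Summed over 10 blood and immune markers there were 329.7 to 400.5 normalized reads in wt rescue and 248.5 to 319.3 in mut rescue, and the defining marker PTPRC was at 0 in both lines. The 8 endothelial markers summed to 18.58 to 23.99 and 26.16 to 29.92, and 3 fibroblast markers to 160.6 to 179.3 and 262.3 to 335.3, in the same order. The wt rescue libraries did not resemble each other fully. The median of 40 long transcripts lay 0.10 log2 below the WT mean in wt rescue replicate 1, but 0.56 and 0.42 below it in replicates 2 and 3, while the mut rescue libraries lay between 0.03 below and 0.20 above it. The median SD of a gene within a group was 0.09 log2 in both rescue lines, and 0.05 in WT and in GAS41-KO. Counts are therefore also given against wt rescue replicate 1 alone, a fit in which that library is assumed to vary like the other groups.

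YEATS4, the targeted gene and the source of the rescue protein, was read first. WT libraries had 625, 608 and 621 normalized reads, and GAS41-KO libraries 386, 337 and 325. The wt rescue libraries had 2887, 3500 and 3372, and the mut rescue libraries 2551, 2358 and 2538. Both lines thus carried more YEATS4 RNA than unedited cells, and no mut rescue library reached the lowest wt rescue library. YEATS4 was 0.37 log2 lower in mut rescue (SE 0.07, limma adjusted p = 0.000443). Against wt rescue replicate 1 alone the difference was -0.21 (limma adjusted p = 0.0513). The 2 lines therefore differ in the amount of GAS41 RNA as well as in the YEATS substitutions, and the part of that amount in the differences below was not tested. The table cannot separate reads of the edited locus from reads of the transgene, and it does not show whether the reads left in GAS41-KO make protein.

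Many genes differed between the lines. Calls were made for 8860 of 14505 genes (61.1%), with 4322 (29.8%) higher and 4538 (31.3%) lower in mut rescue. The rescue groups did not overlap in 8403 genes (57.9%). Most differences were small: the median size was 0.23 log2, and 247 genes (1.70%) were called higher and 93 (0.641%) lower by at least 1 log2. The balance of calls depended on the scaling, with 4960 higher and 3804 lower under upper-quartile factors, and on the filter, with 2937 and 4148 among genes with a mean of at least 100 normalized reads. Against wt rescue replicate 1 alone 2939 genes were called higher and 3188 lower. With each library's long-transcript score as a covariate 2712 were called higher and 2868 lower. That score is the median deviation of the 40 long transcripts from their means over the 12 libraries. It was -0.04, -0.42 and -0.31 in wt rescue and 0.13, 0.01 and 0.31 in mut rescue. The score thus differs between the lines, so the covariate can also take out part of the line difference. Because so many genes were called, each list of genes below is to be read against 29.8% higher and 31.3% lower. These shares hold for the main fit only. List counts against wt rescue replicate 1 alone or with the covariate are to be read against the smaller totals of those fits, given above. A list count that drops in those fits is therefore not by itself particular to the list.

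**Figure D1:**
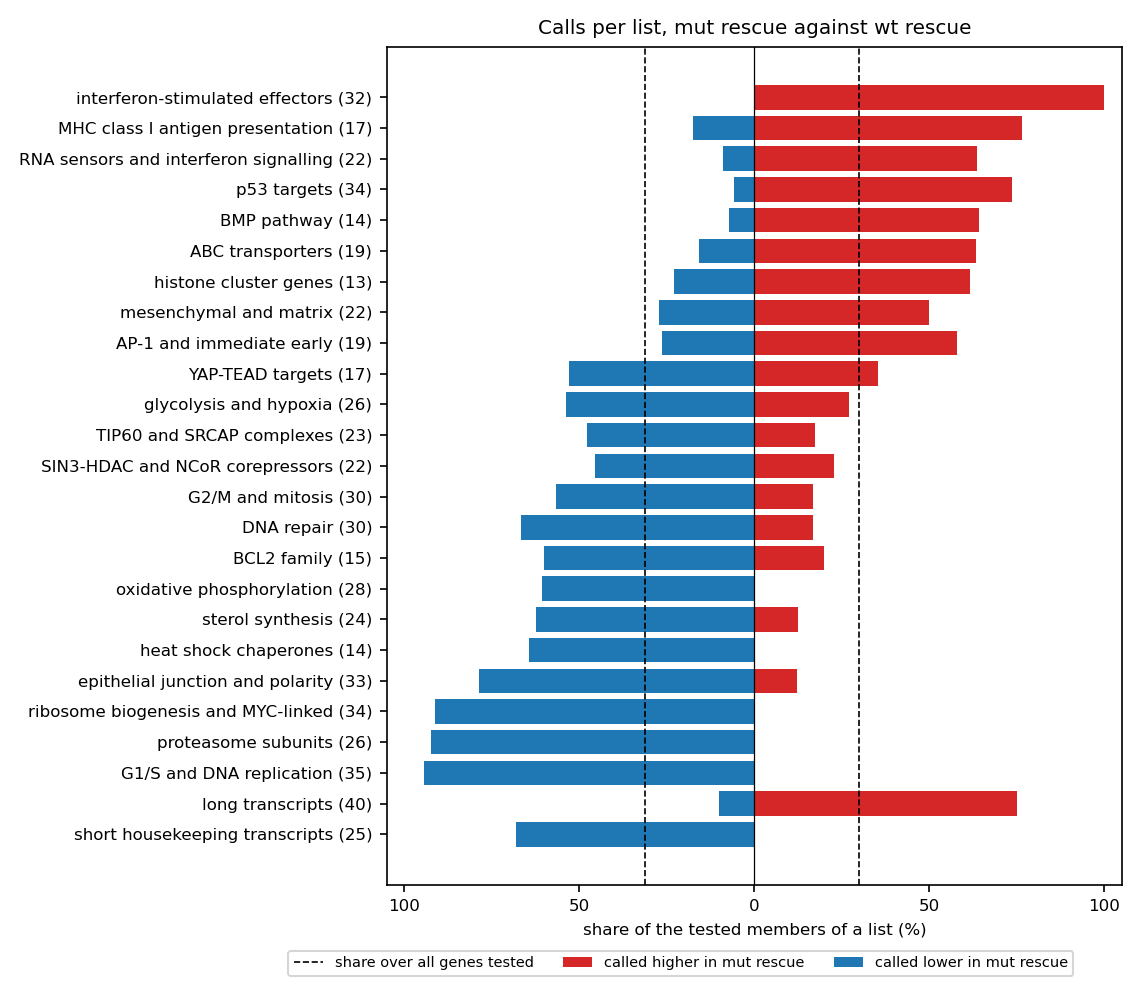
Share of the tested members of 25 gene lists called higher (red, to the right) or lower (blue, to the left) in mut rescue against wt rescue, in percent; the number of tested members is in brackets and the dashed lines are the shares over all tested genes, 29.8% and 31.3%. All 32 tested interferon-stimulated genes were called higher, and 33 of 35 replication genes lower.

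The rises were led by interferon-stimulated genes, by genes of guidance, adhesion and signalling, and by SAT1. The 12 largest by log2 difference, among called genes with at least 100 normalized reads and no overlap, were IFI6, NEBL, IFIT1, IFI27, CXCR4, SAMD5, RGS5, ITGB8, SEMA3A, PRF1, SAMD9 and SAT1. IFI6, an interferon-induced mitochondrial protein that restrains apoptosis, had 78.7, 98.1 and 121 normalized reads in wt rescue and 2376, 2825 and 2056 in mut rescue. The 3 mut rescue libraries lay far above the 3 wt rescue libraries, at a mean 24.4 times higher (log2 difference 3.49, SE 0.10, limma adjusted p = 2.47e-13).

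IFIT1, which binds foreign RNA that lacks cap methylation, had 52.8, 62.6 and 64.0 normalized reads in wt rescue and 1413, 1229 and 1439 in mut rescue, 22.8 times higher in the mean (log2 difference 3.05, SE 0.07, limma adjusted p = 3.04e-14). IFI27 had 10.96, 8.35 and 6.19 normalized reads in wt rescue against 643, 775 and 559 in mut rescue. SAMD9, an antiviral restriction factor, had 123, 63.6 and 72.3 against 1074, 837 and 1124. The groups of these 4 genes did not overlap. The WT means were 98.0 for IFI6, 82.6 for IFIT1, 7.29 for IFI27 and 172 for SAMD9, so that in WT too these genes were far below mut rescue.

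The largest rise outside the interferon genes was in NEBL, which encodes nebulette, an actin-binding protein of the sarcomere and of focal adhesions. It had 325, 267 and 242 normalized reads in wt rescue and 4208, 3699 and 4412 in mut rescue, 14.8 times higher (log2 difference 3.35, SE 0.08, limma adjusted p = 4.53e-14). CXCR4, the receptor of the chemokine CXCL12, had 9.96, 8.35 and 6.19 normalized reads in wt rescue and 678, 581 and 629 in mut rescue. SAMD5 had 196, 147 and 161 against 2040, 1633 and 2282. None of the 3 genes had overlapping groups. ITGB8, the integrin subunit that activates latent TGF-beta, had 112, 49.0 and 63.0 against 903, 828 and 1134 normalized reads, and the first of its wt rescue libraries stood above the other two.

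SEMA3A, a secreted repulsive guidance cue, had 842, 473 and 503 normalized reads in wt rescue and 4058, 3485 and 4334 in mut rescue, 6.54 times higher. PRF1, the pore-forming perforin of cytotoxic lymphocytes, had 24.9, 31.3 and 31.0 against 620, 678 and 603. The blood marker PTPRC was at 0 in these libraries. SAT1, the enzyme that acetylates spermidine and spermine, had 2252, 2493 and 2300 normalized reads against 13940, 12660 and 13460, 5.69 times higher (log2 difference 2.43, SE 0.06, limma adjusted p = 4.53e-14). All 6 libraries of each gene kept the lines apart.

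The falls were led by epithelial genes. ADGRF1, an adhesion G protein-coupled receptor, had 2522, 2786 and 2645 normalized reads in wt rescue and 169, 204 and 189 in mut rescue, 14.2 times fewer (log2 difference -3.11, SE 0.06, limma adjusted p = 1.42e-14). ALDH1A3, which makes retinoic acid from retinal, had 10160, 11670 and 11440 against 1381, 1335 and 1298, 8.29 times fewer (log2 difference -2.91, SE 0.07, limma adjusted p = 3.04e-14). DHRS3, which returns retinal to retinol, fell as well, from 1257, 1406 and 1385 normalized reads to 245, 285 and 230. In all 3 genes the lowest wt rescue library was above the highest mut rescue library.

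Other large falls were in factors of epithelial identity and sorting. GRHL2, a transcription factor that maintains epithelial gene expression, had 453, 528 and 525 normalized reads in wt rescue and 5.98, 6.98 and 10.1 in mut rescue, 65.4 times fewer. AP1M2, the epithelial subunit of the AP-1 sorting adaptor, had 1039, 1334 and 1142 against 62.8, 64.9 and 54.3, 19.3 times fewer. MAL2, a protein of apical transcytosis, had 2209, 2139 and 2125 against 191, 143 and 185, 12.5 times fewer. The log2 differences of these 3 genes were -2.60, -2.84 and -2.91, with groups that did not overlap.

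CDH1, which encodes E-cadherin, had 1237, 1438 and 1374 normalized reads in wt rescue and 157, 155 and 179 in mut rescue, 8.26 times fewer (log2 difference -2.33, SE 0.07, limma adjusted p = 2.47e-13). EPCAM, an epithelial adhesion protein, had 8126, 9608 and 9302 against 1834, 1511 and 1666, 5.396 times fewer. The remaining falls among the 12 largest were ST14 (matriptase, 7.66 times fewer), CLDN7 (a claudin, 5.80 times), STK39 (a stress kinase, 5.58 times) and ESRP1 (an epithelial splicing regulator, 4.63 times). Each of these genes had its 3 mut rescue libraries below all wt rescue libraries.

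**Figure D2:**
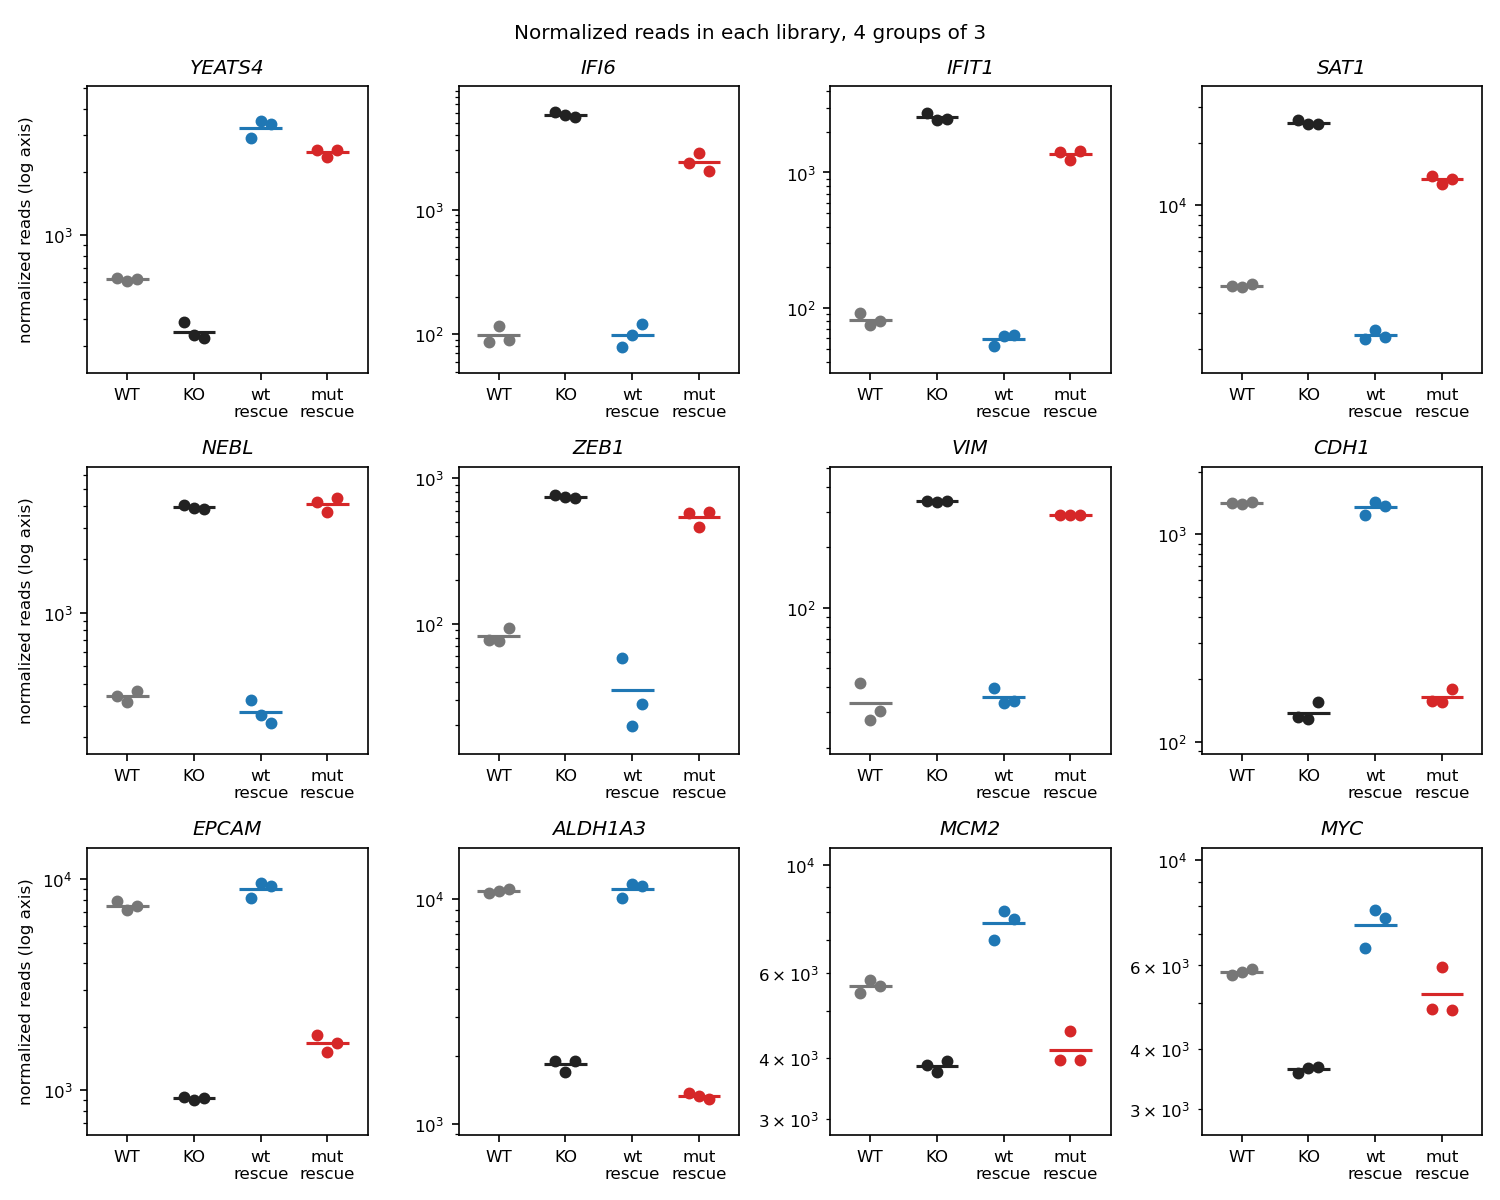
Normalized reads (log axis) of 12 genes in each of the 12 libraries, in groups of 3, with replicates 1 to 3 from left to right in a group and the bar at the mean. IFI6, IFIT1, SAT1, NEBL, ZEB1 and VIM are higher, and CDH1, EPCAM, ALDH1A3, MCM2 and MYC lower, in every mut rescue library than in every wt rescue library.

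Interferon-stimulated effectors, the proteins that carry out antiviral defence, were higher as a group. All 32 tested members of 34 listed were called higher in mut rescue, against 29.8% of all genes, with a median log2 difference of 1.04 against 0.00 over all genes. The groups did not overlap for any of the 32, and against wt rescue replicate 1 alone 31 were called. PARP9, a macrodomain protein of interferon signalling, had 199, 181 and 205 normalized reads in wt rescue and 1266, 1100 and 1240 in mut rescue. OAS1, which makes the second messenger that activates RNase L, had 0, 4.17 and 2.06 normalized reads in wt rescue and 307, 265 and 259 in mut rescue. MX2 and SAMD9L did not pass the filter. That filter takes in all 12 libraries, so members near 0 in WT and wt rescue could enter only through the groups where they are high. IFI44L, for 1, had means of 0.32 normalized reads in WT, 0 in wt rescue, 13.7 in mut rescue and 50.8 in GAS41-KO, and OAS1, RSAD2 and OAS2 were likewise low in WT and wt rescue. For such members a higher call was near fixed by entry, and the share called is inflated by them.

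The sensors and signalling factors upstream of these genes were mixed. Of 22 tested, 14 were called higher and 2 lower, with a median of 0.37. IRF9, the DNA-binding subunit of the interferon-stimulated gene factor, rose from 111, 138 and 122 to 828, 882 and 821 normalized reads. STAT2, its partner, rose 2.90 times. The cytosolic RNA sensors IFIH1 (MDA5) and DDX58 (RIG-I) rose 5.34 and 6.42 times. TMEM173 (STING) fell, from a mean of 333 to 188 normalized reads, as did IFNGR2; the receptor genes IFNAR1 and IFNAR2 and the kinase gene JAK1 were not called.

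Antigen presentation genes followed at smaller size. Of 17 tested genes of MHC class I presentation, 13 were called higher and 3 lower, with a median of 0.33, and 11 and 1 against wt rescue replicate 1 alone. B2M, the light chain of class I molecules, had 4730, 5786 and 5566 normalized reads in wt rescue and 9938, 8866 and 9169 in mut rescue. NLRC5, the class I transactivator, rose 3.29 times, and HLA-B 1.52 times; reads of HLA genes may be split between near-identical copies. PSMB10, CALR and PDIA3 fell. Of 15 NF-kB factors and targets, 5 were called higher and 5 lower, shares near those of all genes, and 2 and 3 against wt rescue replicate 1 alone.

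Promoters of interferon-stimulated genes are shown because the response element is a known sequence and the genes rose together. RefSeq promoters (GRCh38.p14, 250 bases before to 50 after the start) with a single listed start matched 8011 of the tested genes and number 22114 in all. The core GAAANNGAA, on either strand, is in 8.60% of all these promoters and 6.09% of those of tested genes. Over all called genes it is in 7.22% of promoters of those called higher and 5.49% of those called lower. It is in 19 of 132 promoters (14.39%) of genes called higher by at least 1 log2. Of those called lower by as much, 3 of 42 (7.14%) hold it. Of the 18 interferon-stimulated effectors with a promoter in the table, 15 hold it. IFI6, IFIT1 and SAMD9 are among both these and the 19, so these shares are not separate observations. The 3 with the largest log2 rise that hold it follow, 5′ to 3′ in the direction of transcription, with the core in capitals.
IFI6, chr1:27672143-27672442, minus strand: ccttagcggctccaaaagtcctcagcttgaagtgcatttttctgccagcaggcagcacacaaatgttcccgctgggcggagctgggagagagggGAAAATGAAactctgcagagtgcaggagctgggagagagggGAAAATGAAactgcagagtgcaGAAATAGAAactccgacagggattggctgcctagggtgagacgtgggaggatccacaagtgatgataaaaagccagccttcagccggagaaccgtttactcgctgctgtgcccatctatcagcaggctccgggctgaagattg
IFIT1, chr10:89392373-89392672, plus strand: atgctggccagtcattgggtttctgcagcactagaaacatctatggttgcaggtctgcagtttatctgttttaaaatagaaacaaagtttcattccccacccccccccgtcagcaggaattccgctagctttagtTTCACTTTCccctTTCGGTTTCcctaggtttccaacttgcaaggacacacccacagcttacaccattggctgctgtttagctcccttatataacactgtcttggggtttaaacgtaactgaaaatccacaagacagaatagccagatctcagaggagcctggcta
SAMD9, chr7:93117930-93118229, minus strand: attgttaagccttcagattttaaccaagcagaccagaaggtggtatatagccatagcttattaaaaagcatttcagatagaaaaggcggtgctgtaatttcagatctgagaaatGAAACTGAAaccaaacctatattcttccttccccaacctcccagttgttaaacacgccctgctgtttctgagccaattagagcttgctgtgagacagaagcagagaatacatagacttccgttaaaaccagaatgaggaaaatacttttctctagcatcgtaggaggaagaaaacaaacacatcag

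Counted from the start site, the cores begin 156, 115 and 93 bases upstream in IFI6, 115 and 102 bases upstream in IFIT1 and 136 bases upstream in SAMD9. The core was read as a sequence only, and its use in these cells was not measured.

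Epithelial junction and polarity genes were lower as a group. Of 33 tested, 26 were called lower and 4 higher in mut rescue, with a median of -0.78; the shares over all genes are 31.3% and 29.8%. Against wt rescue replicate 1 alone the counts were 25 and 3. Beside the genes above, ELF3, an ETS factor of epithelia, fell from 1007, 1230 and 1151 to 248, 277 and 250.5 normalized reads. RAB25, a GTPase of apical recycling, fell from a mean of 928 to 189. The 4 that rose were KLF5, TJP3, EHF and JUP, by 0.70, 0.43, 0.38 and 0.23 log2. TJP1, DSP and CLDN3 were not called. In bulk RNA, fewer cells of a kind and less RNA per cell cannot be told apart.

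Some mesenchymal genes rose. ZEB1, a repressor of epithelial genes including CDH1, had 57.8, 19.8 and 27.9 normalized reads in wt rescue and 575, 462 and 591 in mut rescue (log2 difference 2.21, SE 0.10, limma adjusted p = 5.65e-11). VIM, the intermediate filament vimentin, had 39.8, 33.4 and 34.1 against 289, 290 and 291. SPARC, a matrix protein, had 10.96, 6.26 and 10.3 against 296, 324 and 295. The groups of these 3 genes were far apart. Over the list of 22 tested mesenchymal and matrix genes 11 were called higher and 6 lower, with a median of 0.30, and 13 and 3 with the long-transcript covariate. LAMB1 and TGM2 rose 3.54 and 5.30 times, and FN1 2.46 times. SNAI1 and TWIST1, other repressors of CDH1, were called lower, with THBS1, LAMC1, TPM1 and TPM2. The epithelial keratins KRT8 and KRT18 had means of 41540 and 18700 normalized reads in wt rescue and 40060 and 18530 in mut rescue, and were not called. Keratins as a list did move: of 11 tested, 6 were called higher and 3 lower in mut rescue, with a median of 0.26. Of the 6 colon epithelial markers tested, which include KRT8 and KRT18, 4 were called lower and 0 higher.

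ZEB1 and related zinc-finger repressors bind the E-box variant CACCTG, and the promoters of falling epithelial genes are shown for that sequence, which was searched after the levels above had been seen. On either strand it is in 20.75% of all promoters and 18.86% of those of tested genes. Over all called genes it is in 19.96% of promoters of those called lower and 17.7% of those called higher, both near the share of tested genes. It is in 19 of 42 promoters (45.24%) of genes called lower by at least 1 log2. Of those called higher by as much, 16 of 132 (12.12%) hold it. Of the 12 epithelial genes with a promoter in the table, 7 hold it. AP1M2, RAB25 and ELF3 are among both these and the 19, so these shares are not separate observations. AP1M2, RAB25 and ELF3, which hold CACCTG, follow in the direction of transcription with the match in capitals.
AP1M2, chr19:10587263-10587562, minus strand: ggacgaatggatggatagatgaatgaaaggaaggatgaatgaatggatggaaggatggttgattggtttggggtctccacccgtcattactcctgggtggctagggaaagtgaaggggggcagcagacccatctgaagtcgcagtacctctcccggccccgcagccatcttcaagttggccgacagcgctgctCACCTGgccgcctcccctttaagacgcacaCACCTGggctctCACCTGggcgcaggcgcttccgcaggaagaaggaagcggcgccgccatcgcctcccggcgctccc
RAB25, chr1:156060910-156061209, plus strand: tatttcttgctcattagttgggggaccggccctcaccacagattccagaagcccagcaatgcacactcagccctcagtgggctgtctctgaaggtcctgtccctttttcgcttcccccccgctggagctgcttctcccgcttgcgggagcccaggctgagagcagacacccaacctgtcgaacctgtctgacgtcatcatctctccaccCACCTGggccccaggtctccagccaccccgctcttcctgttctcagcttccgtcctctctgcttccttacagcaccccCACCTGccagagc
ELF3, chr1:202010337-202010636, plus strand: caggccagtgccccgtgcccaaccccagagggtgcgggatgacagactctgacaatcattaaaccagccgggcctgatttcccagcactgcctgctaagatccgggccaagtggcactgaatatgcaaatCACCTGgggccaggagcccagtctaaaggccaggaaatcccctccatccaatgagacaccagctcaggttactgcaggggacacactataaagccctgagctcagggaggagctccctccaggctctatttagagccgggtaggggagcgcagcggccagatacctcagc

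In AP1M2 the matches begin 57, 27 and 15 bases upstream of the start, in RAB25 41 bases upstream and at base 38 downstream, and in ELF3 120 bases upstream. A match of 6 letters is common, and binding was not measured.

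DNA replication and cell cycle genes were lower. Of 35 genes of G1/S and replication, 33 were called lower and 0 higher, with a median of -0.65; CCNE2 and CDC7 were not called. Against wt rescue replicate 1 alone 33 were again called lower. MCM2, a subunit of the replicative helicase, had 7010, 8020 and 7752 normalized reads in wt rescue and 3959, 4549 and 3955 in mut rescue (log2 difference -0.85, SE 0.07, limma adjusted p = 5.26e-08). E2F2, an activator of S-phase genes, had 1040, 1217 and 1104 against 458, 524 and 506, and PRIM1, the primase subunit, fell by 0.88 on the log2 scale. No mut rescue library of MCM2 or E2F2 reached a wt rescue library.

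Of 30 G2/M and mitosis genes, 17 were called lower and 5 higher, with a median of -0.49. CCNB1, the cyclin of mitotic entry, had 6437, 7552 and 7076 normalized reads in wt rescue and 4360, 4362 and 3905 in mut rescue. CDC20, an activator of the anaphase-promoting complex, had 7175, 8350 and 7941 against 4229, 4887 and 3795. CCNA2 and BUB1B fell by 0.69 and 0.58 on the log2 scale. The 5 called higher were TOP2A, ECT2, CKAP2, CENPE and CENPF. In CENPF, which has a long transcript, the libraries had 6702, 2756 and 3175 in wt rescue and 6153, 4717 and 6640 in mut rescue, so that replicate 1 of wt rescue lay above all mut rescue libraries and the groups overlapped. Against wt rescue replicate 1 alone 24 of the 30 were called lower and 0 higher.

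DNA repair genes had 20 called lower and 5 higher of 30. The higher calls were 1 against wt rescue replicate 1 alone, 0 with the long-transcript covariate and 9 without wt rescue replicate 1, while the lower calls were 19 to 21 in these settings. FANCD2, of crosslink repair, fell by 0.78 on the log2 scale. The 5 called higher were ATM, LIG4, NBN, ATR and FANCB. ATM had 869, 284 and 325 normalized reads in wt rescue and 1505, 1132 and 1789 in mut rescue, and its wt rescue replicates 2 and 3 stood far below replicate 1. Long transcripts as a list had 30 of 40 called higher and 4 lower, and 18 and 1 against wt rescue replicate 1 alone; the cause of this shift was not tested.

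Ribosome biogenesis and MYC-linked genes were lower, with 31 of 34 called lower, 0 higher and a median of -0.55. A count of 28 were called lower against wt rescue replicate 1 alone. MRTO4, a factor of large-subunit assembly, had 2564, 3234 and 3040 normalized reads in wt rescue and 1326, 1414 and 1225 in mut rescue (log2 difference -1.07, SE 0.08, limma adjusted p = 1.22e-08). NOLC1 and NCL, nucleolar proteins of rRNA processing, fell by 0.75 and 0.55 on the log2 scale. MYC itself had 6531, 7833 and 7549 against 4872, 5951 and 4833 (log2 difference -0.48, SE 0.08, limma adjusted p = 0.000109), with groups that did not overlap. With the long-transcript score as a covariate the MYC difference was -0.18 (limma adjusted p = 0.0947). MXD4, which competes with MYC for MAX, rose from 254, 286 and 311 to 1128, 1478 and 1081 normalized reads. MXD1 rose 2.57 times, and MYCL fell from a mean of 124 to 56.1.

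Promoters of 1 ribosome biogenesis gene and 1 mitosis gene show the sequences named for these groups. The E-box CACGTG, bound by MYC with MAX and by other factors, is in 7.28% of all promoters and 10.2% of those of tested genes. It is in 13.03% of promoters of genes called lower, 7.82% of those called higher and 12 of the 21 ribosome biogenesis genes with a promoter. Of genes changed by at least 1 log2, 7 of 42 (16.67%) called lower and 11 of 132 (8.33%) called higher hold it. TTTGAA, the cell cycle homology region of late cell cycle genes, is in 16.02% of all promoters and 9.35% of those of tested genes. It is in 9.73% of promoters of genes called lower and 9.84% of those called higher, so its share did not follow the direction. Of genes changed by at least 1 log2, 2 of 42 (4.76%) called lower and 20 of 132 (15.15%) called higher hold it. Of 19 mitosis genes with a promoter, 13 hold it. The gene of each list with the largest log2 fall that holds its sequence is shown, with the match in capitals.
MRTO4, chr1:19251555-19251854, plus strand: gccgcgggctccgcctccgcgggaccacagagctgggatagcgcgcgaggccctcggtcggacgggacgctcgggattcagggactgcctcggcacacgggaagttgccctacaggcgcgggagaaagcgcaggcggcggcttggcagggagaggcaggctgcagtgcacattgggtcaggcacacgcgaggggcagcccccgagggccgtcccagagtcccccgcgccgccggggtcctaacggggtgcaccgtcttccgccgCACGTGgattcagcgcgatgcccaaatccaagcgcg
CDC20, chr1:43358731-43359030, plus strand: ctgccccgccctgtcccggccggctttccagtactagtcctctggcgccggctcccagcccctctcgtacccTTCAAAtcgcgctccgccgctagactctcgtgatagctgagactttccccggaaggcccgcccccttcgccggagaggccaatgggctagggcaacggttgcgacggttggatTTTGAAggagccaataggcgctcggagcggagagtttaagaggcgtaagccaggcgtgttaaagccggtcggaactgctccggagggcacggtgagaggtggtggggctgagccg

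In MRTO4 the match begins at base 15 downstream of the start, and in CDC20 the matches begin 178 and 65 bases upstream. Neither sequence was tested for binding.

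Targets of p53 were mostly higher in mut rescue. Of 34 tested, 25 were called higher and 2 lower, with a median of 0.30, and 21 and 1 against wt rescue replicate 1 alone. PLK2, a stress kinase, had 1244, 1341 and 1350 normalized reads in wt rescue and 3907, 3591 and 3576 in mut rescue. TP53INP1, a mediator of p53-dependent apoptosis and autophagy, had 409, 399 and 396 against 1397, 1265 and 1557. APAF1, the scaffold of the apoptosome, rose 2.74 times and ZMAT3, an RNA-binding target of p53, 1.93 times. AEN and TRIAP1 were called lower.

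CDKN1A, the CDK inhibitor p21, had 4512, 5064 and 4978 normalized reads in wt rescue and 5702, 6325 and 5276 in mut rescue. The groups did not overlap, at a difference of 0.24 log2 (SE 0.07, limma adjusted p = 0.00648), and with the 6 rescue libraries alone in the fit the adjusted p by limma was 0.0532. MDM2, the ubiquitin ligase of p53, had 3322, 2952 and 3071 against 3913, 3273 and 4787, with 1 mut rescue library within the range of wt rescue. Its difference was 0.33 log2 (limma adjusted p = 0.00862), and it was -0.05 with the long-transcript covariate (limma adjusted p = 0.74). CDKN2B, the inhibitor p15, rose 2.29 times. Of 15 genes of the BCL2 family, 9 were called lower, with BCL2 and BCL2L2 among them, and 3 higher: BBC3 (PUMA), BCL2L11 (BIM) and PMAIP1 (NOXA). The counts were 5 lower and 3 higher against wt rescue replicate 1 alone, and with the covariate 2 were lower and 4 higher, at a median of -0.04 in place of -0.25.

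Partners of GAS41 and corepressors were called in both directions. Among 23 subunits of TIP60 and SRCAP and H2A.Z genes, 11 were called lower and 4 higher, with a median of -0.15. The counts were 7 and 4 against wt rescue replicate 1 alone and 5 and 2 with the long-transcript covariate. RUVBL1, the helicase-like ATPase of both complexes, had 4287, 5265 and 5161 normalized reads in wt rescue and 2815, 2926 and 2672 in mut rescue. KAT5, the acetyltransferase TIP60, fell by 0.43 and H2AFZ, the H2A.Z gene, by 0.59 on the log2 scale. BRD8, EPC2, ING3 and MBTD1 were called higher.

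SIN3A, the scaffold of the SIN3 corepressor, had 2359, 2839 and 2622 normalized reads in wt rescue and 2247, 2159 and 2119 in mut rescue, a log2 difference of -0.24 (limma adjusted p = 0.00427) that was -0.11 against wt rescue replicate 1 alone (limma adjusted p = 0.212). HDAC2 had 3362, 3095 and 3204 against 2536, 2391 and 2674, a log2 difference of -0.33 (SE 0.06, limma adjusted p = 0.000197). HDAC1 had 5446, 6511 and 6408 against 6006, 6249 and 5672 and was not called at a difference of -0.03; its sign changed with the setting, to 0.14 with quantile normalization (limma adjusted p = 0.028), 0.13 against wt rescue replicate 1 alone (limma adjusted p = 0.158) and 0.21 with the long-transcript covariate (limma adjusted p = 0.0325). Over 22 SIN3, HDAC and NCoR genes 10 were called lower and 5 higher, but 3 and 4 against wt rescue replicate 1 alone and 3 and 5 with the covariate. Of 31 writers, erasers and readers of marks on histone H3 lysine 27, 8 were called higher and 7 lower, below the shares over all genes, and 12 and 4 with quantile normalization; KAT2B rose 2.72 times while its paralog KAT2A fell from a mean of 1128 to 722 normalized reads.

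Housekeeping and metabolic groups were lower or mixed. Of 26 proteasome subunits 24 were called lower and 0 higher, with a median of -0.37, with 21 against wt rescue replicate 1 alone and 15 with the long-transcript covariate. Of 28 oxidative phosphorylation genes 17 were called lower and 0 higher, but 8 against that library alone, and the list's median of -0.25 was 0.01 with the long-transcript covariate. Cytosolic ribosomal proteins had 8 of 28 called lower at a median of -0.13, with 0 called against wt rescue replicate 1 alone; the median was 0.01 with quantile normalization and 0.16 with the covariate. Short housekeeping transcripts, set beside them as a check on the libraries, had 17 of 25 called lower and 0 higher, 10 lower against that library, and 6 lower and 3 higher with the covariate.

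Sterol synthesis genes had 15 of 24 called lower and 3 higher, and 14 and 1 against wt rescue replicate 1 alone. INSIG1, the sterol-sensing brake of SREBP, fell by 0.65 on the log2 scale, while TM7SF2 rose 2.55 times. Amino acid stress genes had 11 of 19 lower and 4 higher. SLC7A5, the leucine transporter, had 17670, 20230 and 19810 normalized reads in wt rescue and 6383, 7481 and 6673 in mut rescue (log2 difference -1.47, SE 0.07, limma adjusted p = 1.52e-10). Its partner SLC3A2 fell by 1.02 on that scale. ATF4, the regulator for which the list is named, fell by 0.64, and DDIT4, an inhibitor of mTORC1, rose 1.97 times.

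Glycolysis and hypoxia genes moved in both directions, with 14 of 26 called lower and 7 higher. There were 9 lower and 7 higher against wt rescue replicate 1 alone, and with the long-transcript covariate 6 were lower and 8 higher, which turned the median from -0.19 to 0.07. SLC2A1, the glucose transporter GLUT1, had 1478, 1702 and 1704 normalized reads in wt rescue and 7171, 8298 and 6983 in mut rescue, 4.60 times higher. ADM, adrenomedullin, had 616, 677 and 660 against 140, 155 and 125, and HK2, hexokinase 2, fell by 1.12 on the log2 scale. Among 14 NRF2 and iron genes 8 were called lower and 0 higher, and 5 and 1 with the covariate; TXNRD1, thioredoxin reductase, fell by 0.93. Among 14 heat shock chaperones 9 were called lower and 0 higher, and HSPA8 fell by 0.57. HSPA1A and HSPA1B are near-identical and their reads cannot be assigned with certainty.

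Signalling lists were split. In the BMP pathway 9 of 14 were called higher and 1 lower, with ID3, a target of BMP signals, rising 2.53 times and the receptor gene BMPR2 3.30 times. Of 19 ABC transporters 12 were called higher and 3 lower. ABCB1, the multidrug efflux pump, had 78.7, 73.0 and 80.5 normalized reads in wt rescue and 590, 556 and 636 in mut rescue, and ABCC2 had 1334, 1315 and 1293 against 5486, 5089 and 5503. AP-1 and immediate early genes had 11 of 19 higher and 5 lower, with JUN rising 2.13 times and FOSL1 falling by 0.93 on the log2 scale. Wnt targets had 6 of 15 in each direction, but 6 higher and 3 lower against wt rescue replicate 1 alone and 7 and 2 with the long-transcript covariate: AXIN2, a feedback inhibitor, rose from 207, 238 and 249 to 815, 862 and 841 normalized reads, and CCND1, cyclin D1, fell by 0.65. ERK feedback genes also had 6 of 15 in each direction, and 6 higher and 3 lower with the covariate, with DUSP4 rising 2.54 times and ETV4 falling by 0.99.

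Semaphorins and their receptors had 9 of 21 called higher and 2 lower; SEMA3B rose 7.63 times and SEMA7A fell by 0.74 on the log2 scale. Among histone genes, whose copies are alike and whose RNA is mostly without a poly-A tail, 8 of 13 were called higher and 3 lower, and 8 and 0 against wt rescue replicate 1 alone, with HIST1H1C at 91.6, 109 and 112 normalized reads in wt rescue and 471, 421 and 377 in mut rescue. Of 12 ERBB receptors and ligands 6 were called lower and 2 higher, and 4 and 2 with the covariate; EREG, epiregulin, fell by 1.12. Of 17 YAP-TEAD genes 9 were called lower and 6 higher, and 6 in each direction against wt rescue replicate 1 alone: WWC1 and F3 fell by 0.96 and 0.73, and ANKRD1 rose from a mean of 3.72 to 64.1 normalized reads. Genes next to YEATS4 on 12q15 had 4 of 13 higher and 3 lower, and 0 and 3 against that library alone. By chromosome the median difference ran from -0.10 on chromosome 21 to 0.08 on chromosome 4.

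The difference between knockout and unedited cells uses none of the 6 rescue libraries, so that the 2 differences can be set beside each other. GAS41-KO against WT gave 7624 called genes (52.6%), 3772 (26.0%) higher and 3852 (26.6%) lower. Of the 4322 genes higher in mut rescue, 2502 (57.9% of them, and 66.3% of those higher in GAS41-KO) were also higher in GAS41-KO, and 103 were lower. Of the 4538 lower in mut rescue, 2826 (62.3%, and 73.4% of those lower in GAS41-KO) were also lower, and 119 were higher. Among genes changed by at least 1 log2, 207 of 247 (83.8%) were higher in GAS41-KO and 0 lower, and 91 of 93 (97.8%) were lower. The other two falls, named here after their values were seen, were EMP1, a membrane protein, and NEUROD1, a neuronal transcription factor. NEUROD1 had 258, 196 and 190 normalized reads in wt rescue, 0.997, 4.99 and 5.03 in mut rescue, 71.8, 61.4 and 59.1 in GAS41-KO and 0.944 to 2.85 in WT.

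Across the 14505 genes the 2 differences had a Pearson r of 0.745 and a Spearman rho of 0.677, given as a description since genes are not independent. With wt rescue replicate 1 alone they were 0.848 and 0.8, and with the long-transcript covariate 0.867 and 0.831. Without wt rescue replicate 1 they were 0.673 and 0.614.

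**Figure D3:**
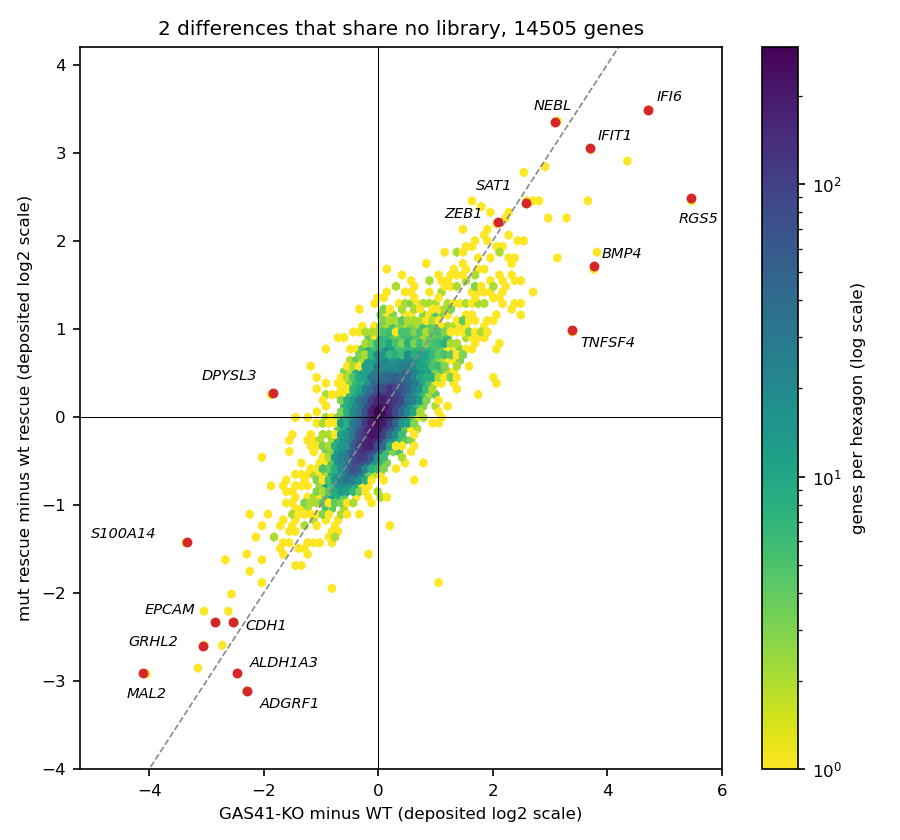
Log2 difference of each of 14505 genes in mut rescue minus wt rescue (vertical) against GAS41-KO minus WT (horizontal), on the deposited scale; color gives genes per hexagon on a log scale, the dashed line is equality, and 16 genes are marked in red. The cloud lies along the line (Pearson r 0.745), with RGS5, BMP4 and TNFSF4 below it on the right, and DPYSL3 above it.

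Mut rescue against GAS41-KO shares the mut rescue libraries with the main comparison, so its values are set beside those above without a measure of likeness. It gave 2164 called genes (14.9%), 858 higher (5.92%) and 1306 lower (9.00%), and 3 and 22 of them by at least 1 log2. The 3 were YEATS4, LAMB3 and VGF. The count of calls was 3238 without wt rescue replicate 1, 1418, 1375 and 1283 without GAS41-KO replicates 1, 2 and 3, and 1419 without mut rescue replicate 1. Of the 32 interferon-stimulated effectors 30 were called lower in mut rescue than in GAS41-KO, with a median of -0.60: IFI6 had 6089, 5766 and 5545 normalized reads in GAS41-KO, and IFIT1 had 2737, 2445 and 2496. The mut rescue libraries thus lay between wt rescue and GAS41-KO for these genes. Of 34 ribosome biogenesis genes 24 were called higher than in GAS41-KO and 0 lower, with a median of 0.26, and MYC was 0.50 log2 higher (limma adjusted p = 0.000517).

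Few replication and mitosis genes were called between mut rescue and GAS41-KO. Of 35 replication genes 1 was called higher in mut rescue than in GAS41-KO and 0 lower, and of 30 mitosis genes 0 were called in either direction by limma. Of 33 epithelial genes 14 were called higher and 2 lower, against 5.92% and 9.00% of all genes, at a median of 0.12; EPCAM had 932, 898 and 915 normalized reads in GAS41-KO, below all mut rescue libraries, while CDH1, with 131, 128 and 155, was not called. NEBL and CXCR4 were not called either, with 4069, 3911 and 3833 normalized reads of NEBL in GAS41-KO.

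**Figure D4:**
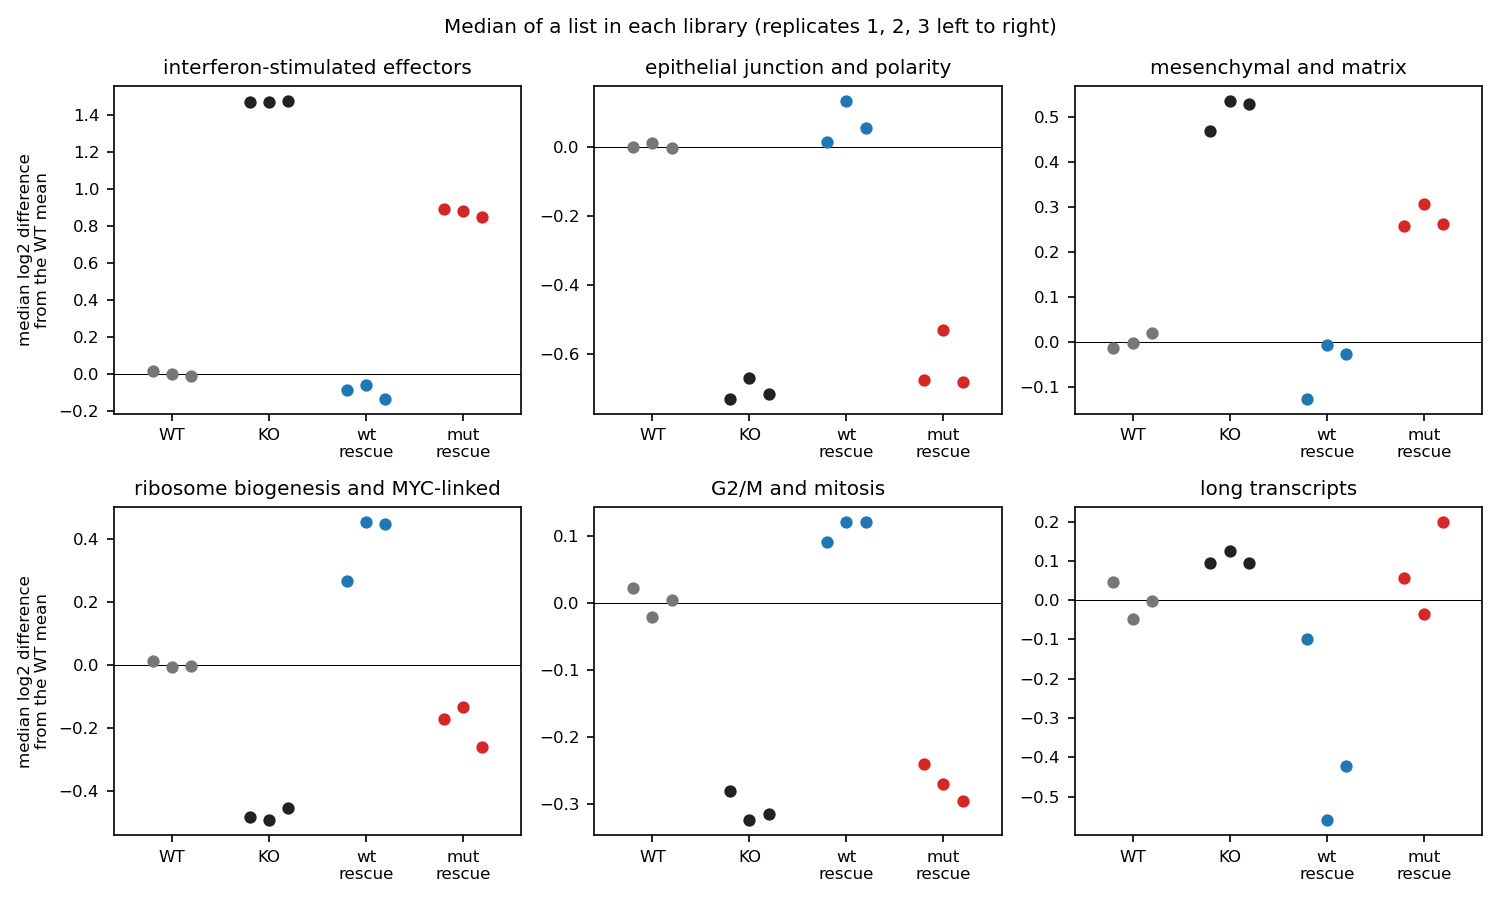
Median log2 difference from the WT mean over the tested members of 6 lists, in each of the 12 libraries (replicates 1 to 3 from left to right in a group). Interferon-stimulated effectors are at 0.85 to 0.89 in mut rescue and about 1.47 in GAS41-KO, and long transcripts at -0.56 and -0.42 in wt rescue replicates 2 and 3.

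The interaction contrast, mut rescue against wt rescue minus GAS41-KO against WT, tests where the 2 differences are unequal. It called 3389 genes (23.4%), 1585 higher (10.9%) and 1804 lower (12.4%), and 952 against wt rescue replicate 1 alone. The count rested on single libraries: it was 6150 without wt rescue replicate 1 and 5226 without mut rescue replicate 2. It was 2127 and 1773 without wt rescue replicates 2 and 3, 2034 and 2062 without mut rescue replicates 1 and 3, 2190 and 1916 without GAS41-KO replicates 2 and 3, and 2006 and 2074 without WT replicates 1 and 3. With upper-quartile factors the split was 1925 higher and 1375 lower. Interferon-stimulated effectors had 24 of 32 called lower and 0 higher: their rise in mut rescue was smaller than that in GAS41-KO. YAP-TEAD genes had 13 of 17 called lower, with 12 called higher and 4 lower in GAS41-KO against WT. Of 40 long transcripts 18 were called higher.

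Interactions were ranked among called genes with rescue groups apart and a mean of at least 100 normalized reads over all 12 libraries. RGS5, a GTPase-activating protein of G protein signals, had the largest negative interaction, at -2.98 log2 (SE 0.11, limma adjusted p = 1.2e-10). It had 87.7, 57.4 and 66.1 normalized reads in wt rescue, 1015, 868 and 952 in mut rescue, 10140, 9229 and 9227 in GAS41-KO, and 94.5, 80.3 and 95.8 in WT. The mut rescue libraries were therefore 13.4 times above wt rescue and well below GAS41-KO. TNFSF4 (OX40 ligand), BMP4 (a secreted morphogen) and ZBED2 (a zinc-finger repressor) followed, with wt rescue above WT. BMP4 had 3831, 4558 and 4467 in wt rescue, 14100, 15650 and 13430 in mut rescue, and 874, 861 and 861 in WT. TNFSF4 had 394, 420 and 384 in wt rescue, 965, 903 and 921 in mut rescue, and 15.3, 17.0 and 32.3 in WT.

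The largest positive interactions were in DPYSL3, S100A14, HMGN5 and DSC3, which were lower in GAS41-KO than in WT. DPYSL3, a cytoskeletal protein of growth cones, had 182, 218 and 198 normalized reads in wt rescue and 242, 305 and 254 in mut rescue, with 933, 910 and 1016 in WT. HMGN5, a nucleosome-binding protein, had 109, 54.2 and 70.2 in wt rescue, 166, 127 and 190 in mut rescue and 472, 456 and 461 in WT. Both genes stayed below WT in both lines. DSC3, a desmosomal cadherin, had 49.8, 48.0 and 36.1 in wt rescue, 12.96, 6.98 and 23.1 in mut rescue, and 394, 331 and 336 in WT. Its rescue libraries lie near or below 39.1 normalized reads, 1 log2 over the floor, where the deposited scale compresses differences. The part of this compression in the size of its interaction was not tested.

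**Figure D5:**
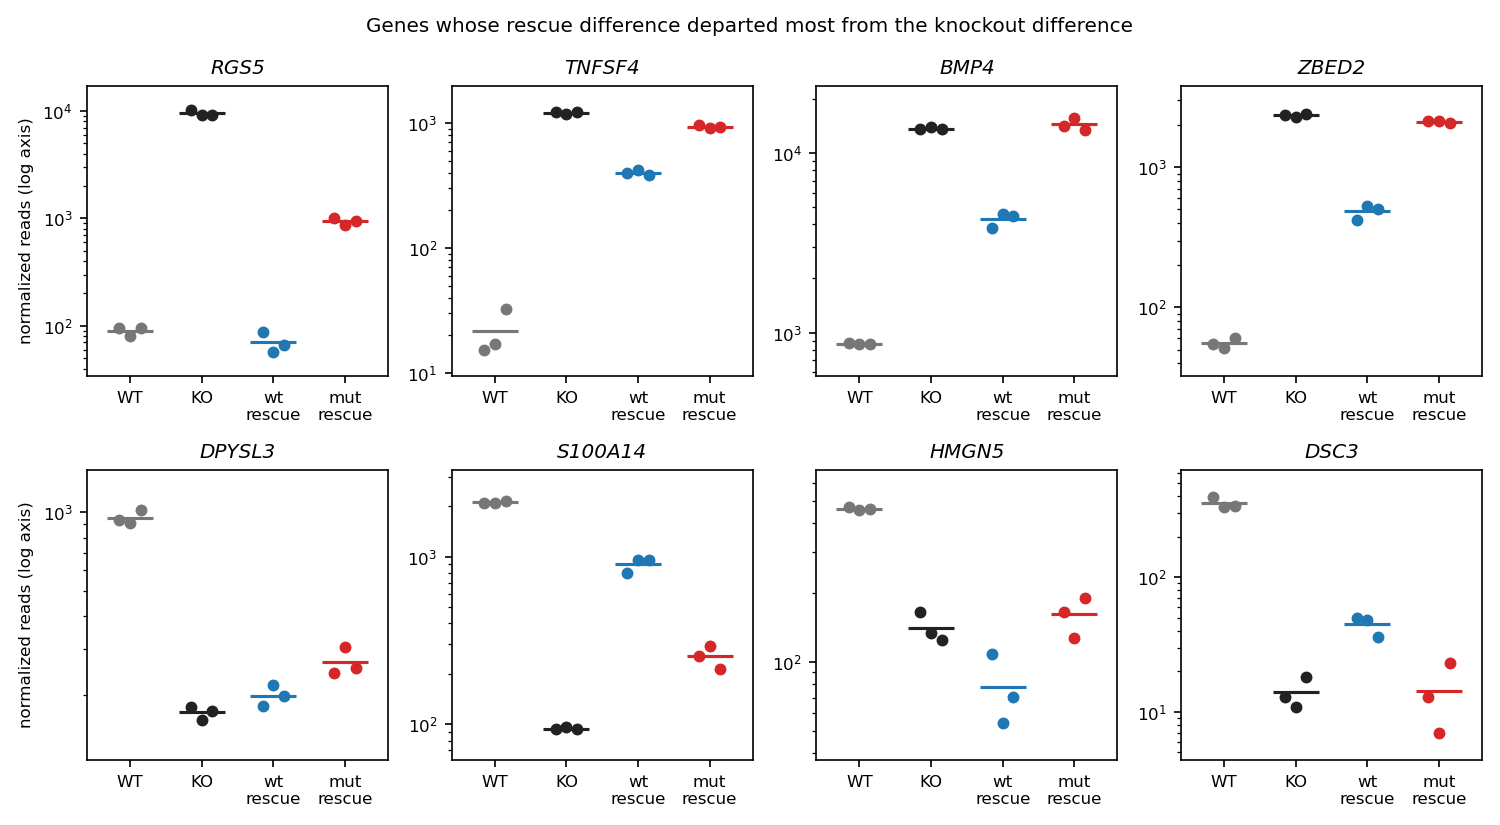
Normalized reads (log axis) of the 4 genes with the largest negative (upper row) and the 4 with the largest positive interaction (lower row), in each of the 12 libraries, with the bar at the group mean. In the upper row except RGS5 the wt rescue libraries are above WT, and in the lower row they are below WT in all 4 genes.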

How the data were processed

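Poly-A RNA of 12 libraries was sequenced on a BGISEQ-500, per the labels. Per the submitters' processing notes, which give no role or order, the tools were DESeq2, HTSeq, TopHat2 2.1.0, Trimmomatic 0.36, Bowtie 1.0.1 and CASAVA 1.4, with hg19 and mm9 named as builds; the annotation and strand setting are not given in the sources used here. The deposited table is named as counts but holds log2 values after variance stabilization. Inverting that scale gave whole reads, within 0.01, for 100% of values, and size factors equal to median-ratio factors. A gene 1 log2 over the floor of the table has 39.1 normalized reads.

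A gene entered the test with 10 or more recovered reads in 3 or more libraries. The test ran on the deposited log2 values with limma 3.58.1 (R 4.3.3, mean-dependent prior), 4 group means, no block. The procedure was tested on simulated data. The simulation changed only a small part of the genes and held no shift between libraries of a line. It therefore cannot show how the calls fare under the spread seen between the wt rescue libraries. No set test was run: lists are given by counts and medians. All 51 lists were counted; the mitochondrially encoded and endothelial lists had 0 tested genes. Members, lists and comparisons were chosen with earlier results of these data known.

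Genes were named by rule: HDAC1, HDAC2, SIN3A, MYC, MDM2, CDKN1A and YEATS4, then the 12 largest rises and falls among called genes with at least 100 normalized reads and no overlap, the 4 largest interactions of each sign, and from each list up to 4 members by smallest p or members needed to say what it holds. Further list members are named where a count of 5 or fewer is spelled out. Of the names, 18140 matched RefSeq. Alternatives were other filters, thresholds, scales, factors, library weights, a covariate, a block and leaving libraries out. The CACCTG search was added after the values were seen. ChIP and doxorubicin samples were not analysed here, and values of some list members are not reported here. Python 3.11.15, pandas 2.3.3 and matplotlib 3.10.9 were used.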

Additional observations from a re-analysis of the deposited data

Results flagged for a closer look

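The difference between the rescue lines departed from that between GAS41-KO and WT in 3389 genes by the interaction contrast (limma, adjusted p under 0.05). The largest departures among named genes were -2.98 for RGS5, -2.39 for TNFSF4, -2.05 for BMP4 and -1.98 for ZBED2, and 2.11 for DPYSL3, 1.92 for S100A14, 1.70 for HMGN5 and 1.60 for DSC3, all on the deposited log2 scale. Each of these 8 kept its direction and its call in every alternative run. Since they were picked as the largest called interactions in these same libraries, that was likely from the start and is no separate support. S100A14 had 801, 958 and 959 normalized reads in wt rescue and 254, 292 and 214 in mut rescue, against 2080, 2077 and 2160 in WT. ZBED2 had 423, 532 and 506 in wt rescue, 2147, 2132 and 2064 in mut rescue and 54.4, 51.0 and 60.7 in WT.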

How the results depend on the processing

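The count of genes called between the rescue lines was 5580 with the long-transcript score as a covariate, 1766 with a change of at least 0.58 log2, and 7713 to 9518 with 1 library left out. Of 660 values (30 named genes in 22 alternatives), 645 kept their direction and side of the threshold, 6 lost the call, 1 gained it and 8 reversed. Most of the 30 were the 12 largest rises and 12 largest falls, picked from these same data, so that 645 is no measure of stability over all genes. The values that changed were all in CDKN1A, MDM2, MYC, SIN3A and HDAC1, which were named whatever their difference. MDM2 was -0.0478 with the covariate. HDAC1, which was not called at -0.0306, was 0.2064 with the covariate, 0.1394 with quantile normalization, 0.0428 with upper-quartile factors, 0.1293 against wt rescue replicate 1 alone, and 0.0055, 0.015 and 0.0037 without mut rescue replicate 3, wt rescue replicate 2 and wt rescue replicate 3, over a range with 1 library left out from -0.1106 to 0.015. YEATS4 was -0.2345 with the covariate (limma adjusted p = 0.0696) and -0.2072 against wt rescue replicate 1 alone. Mut rescue against GAS41-KO gave 5172 calls with library weights, 3943 with the covariate, 1068 at an adjusted p under 0.01, 151 with a change of at least 0.58 log2 and 1283 to 3238 with 1 library left out (1418, 1375 and 1283 without GAS41-KO replicates 1, 2 and 3, and 1419 without mut rescue replicate 1). GAS41-KO against WT gave 1461 with a change of at least 0.58 log2. The interaction gave 8497 with library weights, 1097 with the covariate, 952 against wt rescue replicate 1 alone, 1105 at an adjusted p under 0.01, 723 with a change of at least 0.58 log2 and 1773 to 6150 with 1 library left out; it was highest without wt rescue replicate 1 (6150) and without mut rescue replicate 2 (5226). Stricter thresholds count fewer genes by construction; the cause of the other changes was not tested.

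Replicate numbers do not pair the libraries: same-numbered wt rescue and mut rescue libraries had deviation correlations of 0.21, 0.478 and -0.39. With the replicate number as a replicate block, 9081 genes were called between the lines (4450 higher, 4631 lower), 2403 between mut rescue and GAS41-KO, and 4080 by the interaction. Library depth was even, but fewer genes had reads in every wt rescue library than in any other library. Differences of low-read genes are compressed on the deposited scale.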
